A study of Mus musculus with 3 samples.

Results

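A list of 38 genes known for their expression in the oocyte was followed through a preparation of mouse granulosa cells, which line the ovarian follicle and nourish its oocyte. The genes were listed by name and not by their levels, and all 38 of the 38 were found among 24225 genes, after the isoforms of each gene had been summed. The libraries were made from wild type C57BL/6 mice of postnatal day 21 to 28 that had all received 4 IU of equine chorionic gonadotropin (eCG), which drives follicle growth. At 4 h and 12 h the mice had also received hCG (human chorionic gonadotropin, 5 IU), a stand-in for the ovulatory surge of luteinizing hormone, and at 0 h they had not. Cells were released by puncturing follicles of the ovary, and each time is represented by 1 library from RNA of 3 mice. The labels do not say whether that RNA was pooled. With 1 library per time there is no replicate spread, no test was run, and each difference is one between 2 libraries.

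An oocyte grows for weeks inside its follicle and stores messenger RNA that it will need after transcription has stopped. Those transcripts encode the glycoproteins of its coat, secreted factors that act on granulosa cells, and proteins kept for the early embryo. The ovulatory surge lets the oocyte resume meiosis, and during this maturation many stored transcripts are translated or degraded in turn. Follicle puncture frees the oocyte together with its cumulus cells, so a granulosa cell preparation can carry its RNA.

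Of the 38 genes, 36 reached 1 FPKM (fragments per kilobase of transcript, relative to all mapped fragments) in at least 1 library, 32 did so in every library, and 18 reached 10 FPKM in every library. Their median level was 10.3 FPKM at 0 h, 7.38 FPKM at 4 h and 13.2 FPKM at 12 h. Summed without Kit and Uchl1, which other cells also express strongly, 36 genes came to 584 FPKM at 0 h (559 to 609), 450 FPKM at 4 h (427 to 473) and 798 FPKM at 12 h (763 to 833). The ranges combine the deposited bounds, which lie 2 deposited standard deviations from each estimate and describe 1 library, not the spread between mice. The 12 h sum of these 36 genes was thus the highest and the 4 h sum the lowest, and the 3 ranges did not meet. With all 38 genes summed, the 4 h range (617 to 668 FPKM) met the 0 h range (640 to 692 FPKM). As a share of the summed FPKM of protein-coding genes the 36 genes made up 0.145% at 0 h, 0.0960% at 4 h and 0.207% at 12 h. FPKM is relative to all mapped fragments. In bulk RNA, a change in oocyte number, in RNA per oocyte or in RNA from the other cells cannot be told apart.

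**Figure D1:**
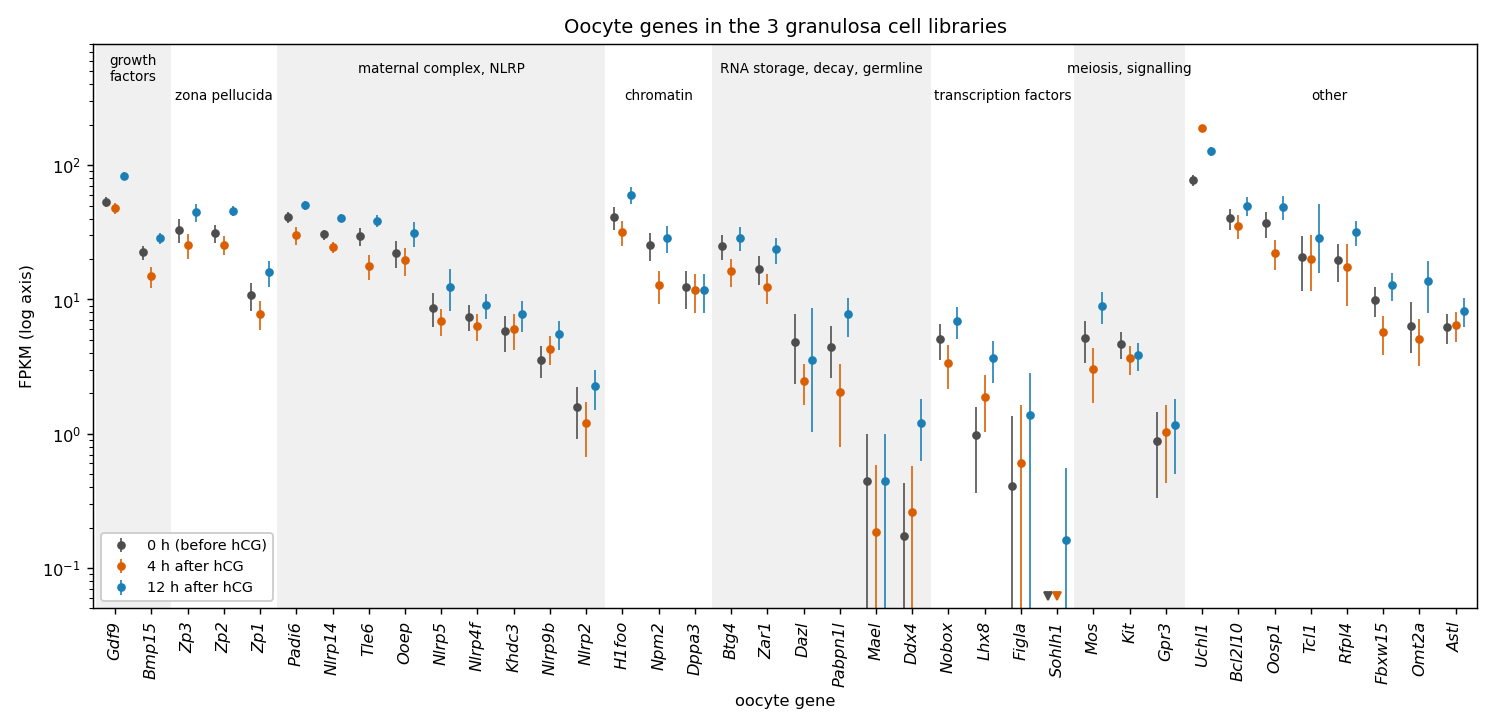
FPKM (log axis) of each of the 38 oocyte genes in the 0 h, 4 h and 12 h libraries, grouped by role; bars are the deposited bounds, and triangles mark Sohlh1 at 0 h and 4 h, at 0 and 0.0786 FPKM, drawn at the foot of the axis. For most genes the 12 h point lies above the 0 h point and the 4 h point lies lowest, while Uchl1 is highest at 4 h.

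Depth read from the spacing of low FPKM values came to about 13400000, 11900000 and 11600000 fragments in the 0, 4 and 12 h libraries. On a transcript of 2000 nt, 1 fragment was worth 0.0419 FPKM at 0 h, 0.0467 FPKM at 4 h and 0.0479 FPKM at 12 h. At this depth Gdf9 rested on 1129, 913 and 1548 fragments in the 0, 4 and 12 h libraries, and Figla on 3, 4 and 9. Counts and calls below include low members such as Figla, Lhx8 and Ddx4, which are less precise. Genes count as higher or lower by a rule of at least 2-fold between log2(FPKM + 1) values, if the higher library reached 1 FPKM. This is a rule of size, and the scale understates the fold of low genes. A gene under 1 FPKM in the earlier library can pass only through a higher later library, which fixes its sign. This holds for Lhx8 and Gpr3 in both comparisons with 0 h, and for Figla and Ddx4 in both comparisons with 12 h. As a second description, deposited intervals are said to lie apart where they do not meet.

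Promoters are shown for a zona gene, a growth factor and a gene of the maternal complex group, which shared the time course of most members, and for Uchl1, which ran otherwise, with 3 motifs searched. The E-box CANNTG is the element that FIGLA binds with its partner, TAATTG is an element that NOBOX binds, and TATAAA is the TATA box. Each window is the 250 bases before the RefSeq start (build GRCm38.p6), read 5′ to 3′ on the gene's strand, and capitals mark matches on either strand. The Zp3 window is chr5:135979855-135980104 on the plus strand, the Bmp15 window is chrX:6320725-6320974 on the minus strand, the Padi6 window is chr4:140742644-140742893 on the minus strand and the Uchl1 window is chr5:66675871-66676120 on the plus strand.
Zp3: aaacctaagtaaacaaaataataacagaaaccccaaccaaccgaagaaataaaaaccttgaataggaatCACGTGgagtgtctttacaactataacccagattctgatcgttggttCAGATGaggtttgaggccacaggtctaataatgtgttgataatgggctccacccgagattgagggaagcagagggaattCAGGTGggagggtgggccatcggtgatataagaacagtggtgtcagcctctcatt
Bmp15: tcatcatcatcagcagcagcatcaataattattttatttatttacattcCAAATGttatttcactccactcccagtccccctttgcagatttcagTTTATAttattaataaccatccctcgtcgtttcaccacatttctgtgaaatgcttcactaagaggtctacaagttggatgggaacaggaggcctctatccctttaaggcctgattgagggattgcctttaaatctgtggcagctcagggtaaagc
Padi6: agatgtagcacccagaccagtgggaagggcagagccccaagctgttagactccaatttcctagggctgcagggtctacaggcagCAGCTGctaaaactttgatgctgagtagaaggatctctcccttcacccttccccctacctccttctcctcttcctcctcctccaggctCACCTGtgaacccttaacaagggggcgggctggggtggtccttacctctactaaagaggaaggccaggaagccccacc
Uchl1: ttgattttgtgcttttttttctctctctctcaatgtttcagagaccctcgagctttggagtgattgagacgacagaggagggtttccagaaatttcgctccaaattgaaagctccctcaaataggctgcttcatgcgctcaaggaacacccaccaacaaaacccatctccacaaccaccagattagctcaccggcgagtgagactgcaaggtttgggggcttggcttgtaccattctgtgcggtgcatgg
The Zp3 window held 3 E-box matches at 181, 134 and 55 bases before the start, Padi6 held 2 at 166 and 78, and Bmp15 held 1 at 201 and the TATA letters on the opposite strand (TTTATA in the printed strand) at 155. Of the 34 promoters found for 30 members, 79.4% held CANNTG, against 66.2% of all 32851 promoters in the same window. TAATTG was in 5.88% of the members' promoters and in 7.17% of all, and TATAAA in 11.8% and 12.4%. Median GC content was 55.2% in the members' windows and 52.4% in all. A match is a description of letters and not of a bound site, and the window of Uchl1, which held no match, says nothing of those factors.

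The growth factors Gdf9 and Bmp15, which the oocyte secretes to act on the granulosa and cumulus cells around it, were among the higher members. Gdf9 (chr11:53430774-53437904, GRCm38) was at 53.6 FPKM at 0 h (48.8 to 58.4), 48.2 FPKM at 4 h (43.7 to 52.7) and 83.8 FPKM at 12 h (77.8 to 89.8). Bmp15, an X-linked gene at chrX:6314054-6320724, was at 22.4 FPKM at 0 h (19.6 to 25.2), 14.9 FPKM at 4 h (12.2 to 17.5) and 28.6 FPKM at 12 h (26.0 to 31.3). For both genes the 12 h interval lay above the other two, and for Bmp15 the 4 h interval also lay below the 0 h one. On the log2(FPKM + 1) scale the Bmp15 fold was -0.56 for 4 h over 0 h and 0.34 for 12 h over 0 h, and the Gdf9 folds were -0.15 and 0.64. Their receptors and partners are in granulosa cells. The BMP receptor Bmpr2 stood at 109, 75.7 and 61.8 FPKM and the TGF-beta family receptor Tgfbr1 at 56.8, 125 and 69.7 FPKM at 0, 4 and 12 h. A further BMP receptor, Bmpr1b, was lowest at 4 h, at 92.4, 33.8 and 60.2 FPKM.

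The zona pellucida genes Zp1, Zp2 and Zp3 encode the glycoproteins of the coat that sperm bind, and their 3 time courses ran alike. Zp1 was at 10.7, 7.81 and 15.9 FPKM at 0, 4 and 12 h, Zp2 at 31.0, 25.5 and 45.9 FPKM, and Zp3 at 33.1, 25.3 and 44.5 FPKM. Each was lowest at 4 h and highest at 12 h, and the 12 h intervals of all 3 lay above the 4 h ones. Zp2 also lay above its 0 h interval at 12 h. Within the sum of the 36 genes Zp3 held a near-constant share of 5.66% at 0 h, 5.61% at 4 h and 5.58% at 12 h. Astl encodes ovastacin, the cortical granule protease that cleaves ZP2 after fertilization, and it stood at 6.23, 6.42 and 8.23 FPKM with overlapping intervals.

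The subcortical maternal complex and the NLRP proteins are cytoplasmic oocyte proteins needed by the cleaving embryo. Padi6, a peptidylarginine deiminase of the oocyte cytoplasmic lattices (chr4:140727355-140742643), was at 40.9, 30.0 and 50.2 FPKM at 0, 4 and 12 h. Tle6, a member of the complex, was at 29.7, 17.6 and 38.5 FPKM, Nlrp14 at 30.6, 24.6 and 40.5 FPKM and Ooep, also of the complex, at 22.3, 19.5 and 31.2 FPKM. In Padi6, Tle6 and Nlrp14 the 4 h interval lay below and the 12 h interval above the 0 h interval, and in Ooep only the 12 h and 4 h intervals lay apart. Nlrp5, the complex member also called MATER, stood at 8.64, 6.95 and 12.5 FPKM and Nlrp4f at 7.46, 6.37 and 9.02 FPKM. The main isoform of Nlrp5, a non-coding one, was at 6.11, 6.95 and 8.17 FPKM and held nearly all of the gene's 4 h value, and its log2 fold for 4 h over 0 h was 0.16, against -0.28 for the summed gene. Nlrp2, the lowest of the group, was at 1.57, 1.20 and 2.25 FPKM. The remaining complex gene Khdc3 (5.82, 5.99 and 7.76 FPKM) and Nlrp9b (3.52, 4.29 and 5.56 FPKM) were not lowest at 4 h on the deposited scale, though both had negative folds for 4 h over 0 h with libraries brought to a common sum, and their intervals overlapped at every time. Summed, these 9 genes came to 150 FPKM at 0 h, 117 FPKM at 4 h and 197 FPKM at 12 h.

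**Figure D2:**
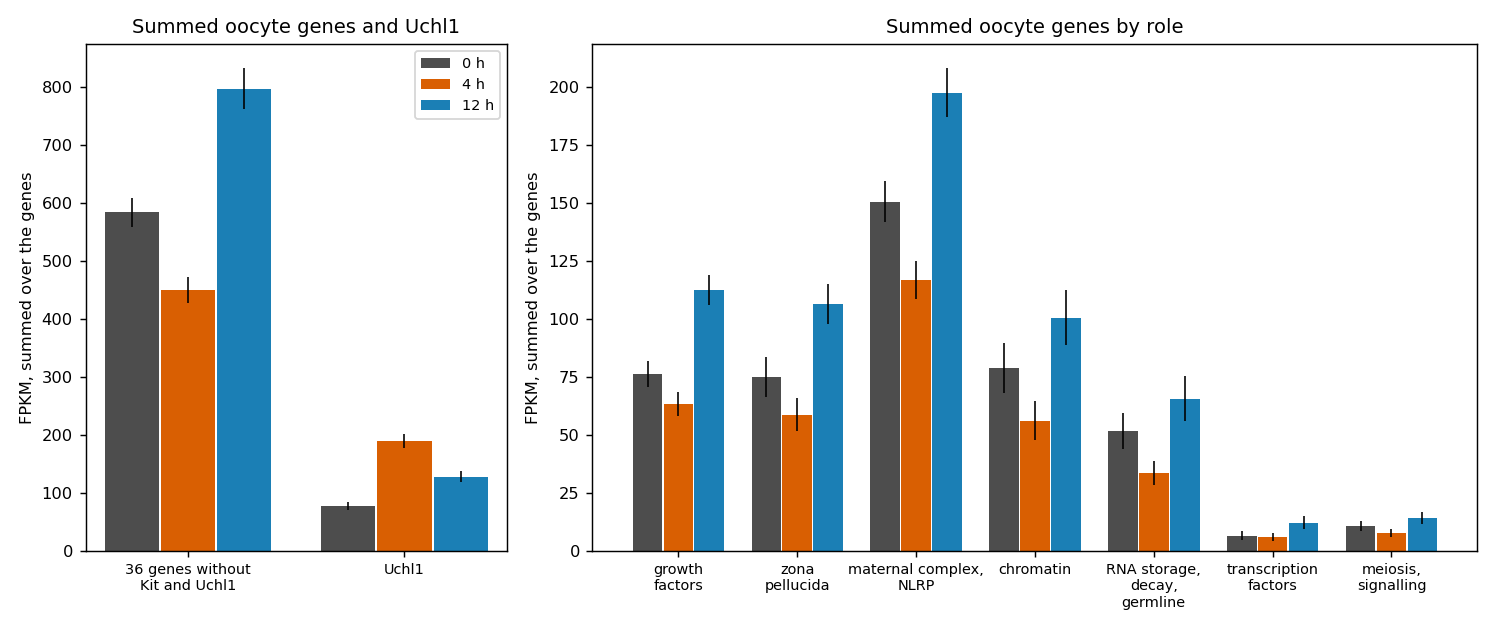
Summed FPKM of the 36 oocyte genes without Kit and Uchl1 in each library, and of the role groups named on the axis, leaving out the group of other genes, with Uchl1 alone beside the 36; lines on the bars are combined deposited bounds. The sum is 450 at 4 h, 584 at 0 h and 798 at 12 h.

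Chromatin genes of the oocyte prepare the genome for the embryo. H1foo, the oocyte linker histone, stood at 40.9, 31.6 and 60.1 FPKM at 0, 4 and 12 h, with the 12 h interval above both others. Npm2, the nucleoplasmin that remodels sperm chromatin, was at 25.3, 12.8 and 28.5 FPKM, and its 4 h interval lay below those of the other times. Its log2 fold of -0.94 for 4 h over 0 h was the most negative of the 34 members that passed the filter, and fell just short of the 2-fold rule. Dppa3, which protects maternal DNA methylation in the zygote, was at 12.5, 11.7 and 11.8 FPKM. Its share of the 36-gene sum was 2.13% at 0 h, 2.60% at 4 h and 1.47% at 12 h, and at 12 h against 4 h its interval was the only one to lie wholly below the ratio of the sum.

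Genes of RNA storage, decay and the germ line control the stored transcripts. Zar1, which helps store maternal messenger RNA, was at 16.9, 12.4 and 23.7 FPKM at 0, 4 and 12 h, and Btg4, an adaptor that brings the deadenylase to maternal messenger RNA, at 24.9, 16.2 and 28.9 FPKM. Pabpn1l, a poly(A)-binding protein of the same clearance, was at 4.45, 2.06 and 7.78 FPKM. For these 3 genes the 12 h interval lay above the 4 h one. Pabpn1l had the largest log2 fold for 12 h over 4 h of any member (1.52), on 23 fragments at 4 h and 86 at 12 h. Dazl, an RNA-binding activator of translation, stood at 4.797, 2.46 and 3.52 FPKM with broad, overlapping intervals, and its share of the sum was 0.821%, 0.546% and 0.441%. The germline helicase Ddx4 was at 0.174, 0.262 and 1.21 FPKM, and Mael, a gene of the piRNA pathway, at 0.445, 0.186 and 0.446 FPKM. Mael and the transcription factor Sohlh1 did not reach 1 FPKM in any library.

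Transcription factors of early oocyte growth were low. Nobox was at 5.04, 3.36 and 6.92 FPKM at 0, 4 and 12 h and followed most members. Lhx8 was at 0.975, 1.89 and 3.63 FPKM (24, 42 and 79 fragments), and its 12 h interval lay above the 0 h one. Figla was at 0.407, 0.603 and 1.39 FPKM, with a lower bound of 0 at each time. Sohlh1 was listed at 0 at 0 h and stood at 0.0786 FPKM at 4 h and 0.161 FPKM at 12 h, on 1 and 2 fragments. In Lhx8 the share of the sum was 0.167%, 0.419% and 0.455%.

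Meiosis and signalling genes were Mos, Gpr3 and Kit. Mos, the kinase that activates the MAP kinase pathway and holds the egg at metaphase, was at 5.12, 3.02 and 8.92 FPKM at 0, 4 and 12 h, and the 12 h interval lay above the 4 h one. Gpr3, the receptor that keeps cyclic AMP high so that the oocyte stays arrested, stood at 0.889, 1.03 and 1.15 FPKM on 11, 11 and 12 fragments. Kit, the receptor for the granulosa cell ligand Kitl, was at 4.68, 3.64 and 3.84 FPKM with overlapping intervals. Kit is also made by theca cells and mast cells. The 4 mast cell markers listed were all under 1 FPKM, summing to 0.776, 1.02 and 0.988 FPKM with Cpa3 listed at 0 in every library. All 8 theca and stroma markers reached 5 FPKM, summing to 298, 625 and 413 FPKM, with none at 0, and to 227, 253 and 223 FPKM without Mgp. The theca genes Cyp17a1 and Insl3 stood at 93.6, 114 and 59.0 FPKM and at 13.1, 7.02 and 4.02 FPKM. The part of theca cells in the Kit level was not tested. Kitl itself was at 25.7, 30.3 and 22.9 FPKM.

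The remaining members are known for oocyte expression but belong to no shared pathway. Oosp1, an oocyte secreted protein, was at 37.0, 22.1 and 48.8 FPKM at 0, 4 and 12 h, and its 4 h interval lay below both others. Bcl2l10, a BCL2 family member, stood at 40.3, 35.3 and 49.9 FPKM, with overlapping intervals. The RING-finger gene Rfpl4 was at 19.7, 17.5 and 31.6 FPKM, Tcl1, a cofactor of the kinase AKT, at 20.7, 20.04 and 28.8 FPKM, and the F-box gene Fbxw15 at 9.86, 5.70 and 12.8 FPKM. All 3 were highest at 12 h and lowest at 4 h, and only Fbxw15 had its 12 h and 4 h intervals apart. The main isoform of Tcl1 stood at 11.7, 2.29 and 11.6 FPKM, and another at 0.00572, 9.69 and 9.21 FPKM. With the main isoform alone the Tcl1 log2 fold for 4 h over 0 h was -1.95, against -0.04 for the summed gene. Omt2a was at 6.32, 5.07 and 13.7 FPKM. One of its isoforms stood at 1.07, 0.139 and 9.89 FPKM and the other at 5.25, 4.93 and 3.803 FPKM, so the higher 12 h level came from an isoform that held little of the gene at the earlier times. In all, 8 members had several isoforms. Members of gene families with near-identical copies, namely Omt2a, Tcl1, Rfpl4, Fbxw15, Nlrp4f and Nlrp9b, are uncertain for that reason, as are members whose exons overlap another gene, namely Khdc3 and Nlrp9b on the same strand, and Fbxw15 and Uchl1 on the opposite strand, where no label states the strand setting.

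Uchl1, a ubiquitin hydrolase abundant in oocytes and neurons (chr5:66676121-66687234), did not follow the other members. It was at 77.2 FPKM at 0 h (69.7 to 84.7), 189 FPKM at 4 h (176 to 201) and 128 FPKM at 12 h (118 to 138). No interval met another, with the 4 h level the highest and the 12 h level between. The log2 fold was 1.28 for 4 h over 0 h, 0.72 for 12 h over 0 h and -0.56 for 12 h over 4 h. Neuron markers were low, and the 5 listed summed to 1.93, 4.56 and 2.36 FPKM at 0, 4 and 12 h. Of these, 2 reached 1 FPKM, both highest at 4 h like Uchl1. They were Prph at 0.479, 2.44 and 1.60 FPKM and Gap43 at 0.548, 1.07 and 0.0793 FPKM. Elavl4 was highest at 0 h, at 0.907, 0.588 and 0.483 FPKM, and Stmn2 and Nefl were listed at 0 at 0 h. The part of neurons in the Uchl1 level was not tested. The opposite-strand gene Uchl1os was at 0, 0 and 0.0593 FPKM. With Uchl1, the highest member, and Kit included, the sum over all 38 genes was 666, 642 and 930 FPKM at 0, 4 and 12 h. Its log2 ratio for 4 h over 0 h was -0.05, with bounds of -0.13 to 0.03, against -0.38 without Uchl1.

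**Figure D3:**
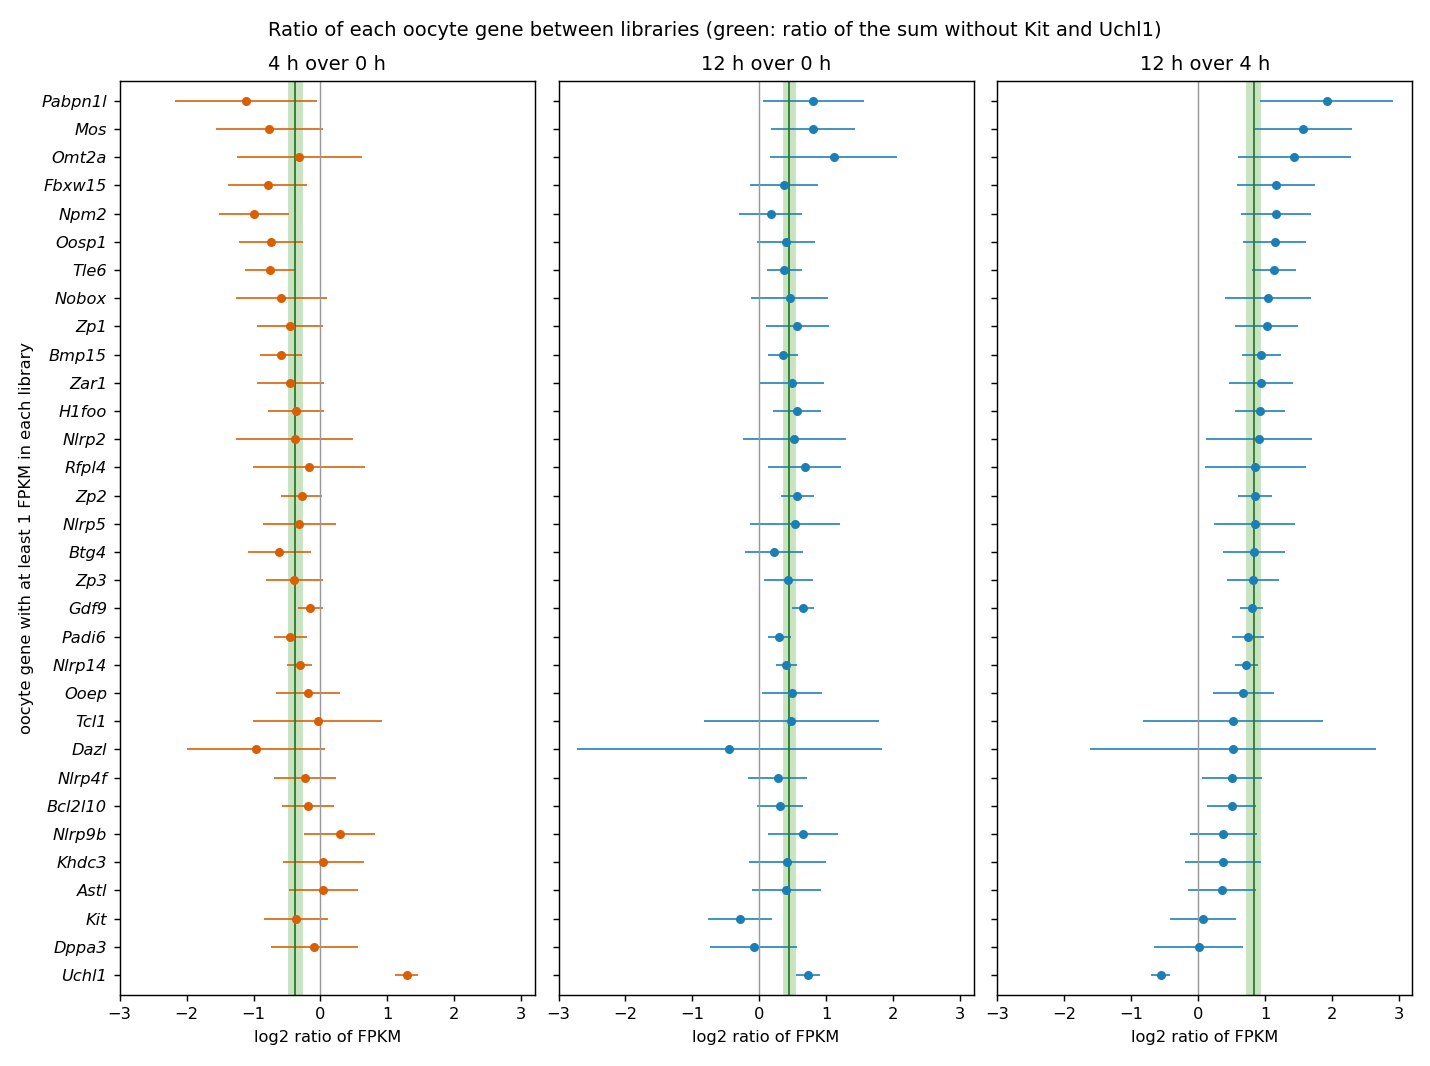
Log2 ratio of FPKM between libraries for each of the 32 oocyte genes with at least 1 FPKM in every library, with lines for the deposited bounds combined on the log scale; the green line and band are the ratio of the 36-gene sum with its bounds. Most genes lie below 0 for 4 h over 0 h and above 0 for 12 h over 0 h; Uchl1 lies at 1.29 for 4 h over 0 h.

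Set against all genes, the members stood lower at 4 h than at 0 h and higher at 12 h than at either earlier time. For 4 h over 0 h the median log2 fold of the 34 members that passed the filter was -0.28, with 28 of 34 negative, beside a median of -0.01 over 13240 genes. The 12 h over 0 h median was 0.41 over 36 members, with 33 positive, beside -0.02 over 13026 genes. Between 12 h and 4 h it was 0.77, with 35 of 36 positive, beside 0.01 over 13242 genes. The filter fixed the positive signs of Lhx8 and Gpr3 for 4 h over 0 h and of Figla and Ddx4 for 12 h over 4 h. For 12 h over 0 h it fixed those of Figla, Lhx8, Gpr3 and Ddx4. The share of all genes with a positive log2 fold was 49.5% for 4 h over 0 h, 48.1% for 12 h over 0 h and 50.7% for 12 h over 4 h. The 3 comparisons share libraries, so their results are not separate.

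By the 2-fold rule 1 of 34 members, Uchl1, was higher at 4 h than at 0 h, where 10.2% of all genes were, and 0 were lower, where 7.03% were. At 12 h against 0 h, 2 of 36 members were higher, Lhx8 and Omt2a, beside 3.16% of all genes, and 0 were lower, beside 2.55%. Lhx8 passed the filter there only through the 12 h library. At 12 h against 4 h, 7 of 36 members were higher, namely Mos, Oosp1, Npm2, Tle6, Omt2a, Pabpn1l and Fbxw15, beside 4.83% of all genes, and 0 were lower, beside 7.88%. The members' shares were 19.4% for 12 h over 4 h and 5.56% for 12 h over 0 h. So the difference of most members was under 2-fold. The Omt2a calls are lost with its main isoform alone, which stands at -0.38 for 12 h over 0 h and -0.30 for 12 h over 4 h.

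With deposited intervals apart as the rule, 6 of 34 members (17.6%) were lower at 4 h than at 0 h, the same as the 17.6% of all genes, and 1 was higher, beside 22.2%. The 6 were Bmp15, Oosp1, Npm2, Nlrp14, Tle6 and Padi6. In the 12 h to 0 h comparison 10 of 36 (27.8%) lay apart and higher, beside 8.37% of all genes, and 0 lay apart and lower, beside 8.68%. Those 10 were Gdf9, Bmp15, Zp2, Nlrp14, Tle6, Padi6, Lhx8, H1foo, Uchl1 and Ddx4. Of these, Lhx8 and Ddx4 passed the filter only through the 12 h library. In the 12 h to 4 h comparison 20 of 36 (55.6%) lay apart and higher, beside 14.3% of all genes, and 1, Uchl1, lay apart and lower, beside 20.6%. Intervals of well measured genes are narrow, so this rule depends on level.

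**Figure D4:**
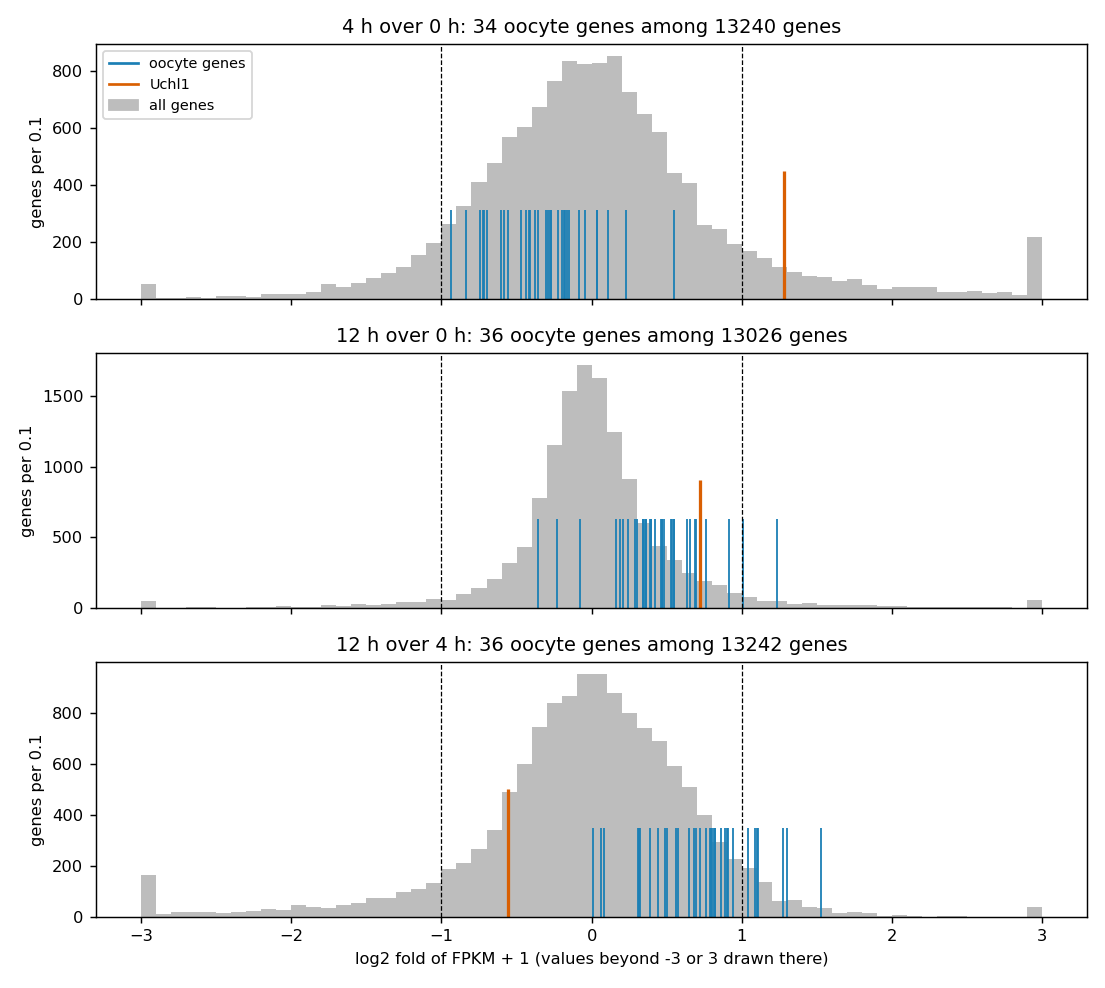
Log2 fold of FPKM + 1 in each of the 3 comparisons, as a histogram of all genes (genes per bin of 0.1; values beyond -3 or 3 drawn there) with a blue line for each oocyte gene, an orange line for Uchl1 and dashed lines at 2-fold; line heights carry no value. The median of the oocyte genes lies at -0.28 for 4 h over 0 h, 0.41 for 12 h over 0 h and 0.77 for 12 h over 4 h, and that of all genes within 0.02 of 0.

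In order of level, 25 of 36 members (69.4%) were lowest at 4 h, between at 0 h and highest at 12 h, beside 16.5% of 13500 genes. The order 0 h, 4 h, 12 h from low to high held for 7 members, Nlrp9b, Khdc3, Figla, Lhx8, Astl, Gpr3 and Ddx4, of which Nlrp9b, Khdc3, Astl and Gpr3 had negative 4 h over 0 h folds with libraries brought to a common sum. Dppa3, Kit and Dazl were highest at 0 h and lowest at 4 h. Uchl1 alone was lowest at 0 h and highest at 4 h. The order takes no account of the size of a difference. Figla and Ddx4 reached 1 FPKM only at 12 h, so the filter placed them highest there.

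The deposited scale bears on the 4 h library, in which microRNA and snoRNA genes held 137813 FPKM, against 92087 FPKM at 0 h and 79540 FPKM at 12 h. With libraries brought to a common sum, the members' median for 4 h over 0 h moved to -0.57 and that of all genes to -0.29, and for 12 h over 4 h they moved to 1.11 and 0.37. With the protein-coding sum in common, the members stood at -0.49 beside -0.21 for 4 h over 0 h and at 1.004 beside 0.27 for 12 h over 4 h. Of all genes called for 4 h over 0 h, 59.3% were higher on the deposited scale, 36.7% with the common sum and 42.5% with the coding sum. The 12 h over 4 h shares were 38.0%, 70.7% and 62.0%. Signs of the members held in most cases, with 31 of 33 and 30 of 33 negative for 4 h over 0 h and 35 of 36 positive for 12 h over 4 h under both.

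Most genes of the 36-gene sum kept to its ratio within their own deposited intervals, which does not show an unchanged make-up. Some intervals were wide, such as log2 -1.01 to 0.92 for Tcl1 at 4 h over 0 h. Each gene is also part of the sum it is set against, and Kit and Uchl1 are not in it. Compared with the ratio of the 36-gene sum for 4 h over 0 h (0.771), 27 genes lay within their own interval, 3 lay above (Gdf9, Nlrp9b and Lhx8), 2 lay below (Npm2 and Tle6) and 4 did not pass the filter. Against the 12 h over 0 h ratio (1.37), 31 lay within, Gdf9, Lhx8 and Ddx4 lay above, 0 lay below and 2 were not compared. Against the 12 h over 4 h ratio (1.77), 32 lay within, Pabpn1l lay above, Dppa3 lay below and 2 were not compared. Gdf9 was the largest single share, at 9.17% at 0 h, 10.7% at 4 h and 10.5% at 12 h. Of genes known from mouse oocytes for translation of stored RNA during maturation, Mos held 0.877%, 0.672% and 1.12% and Btg4 4.26%, 3.61% and 3.62%. The labels name an mRNA library kit but not how it selected RNA.

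**Figure D5:**
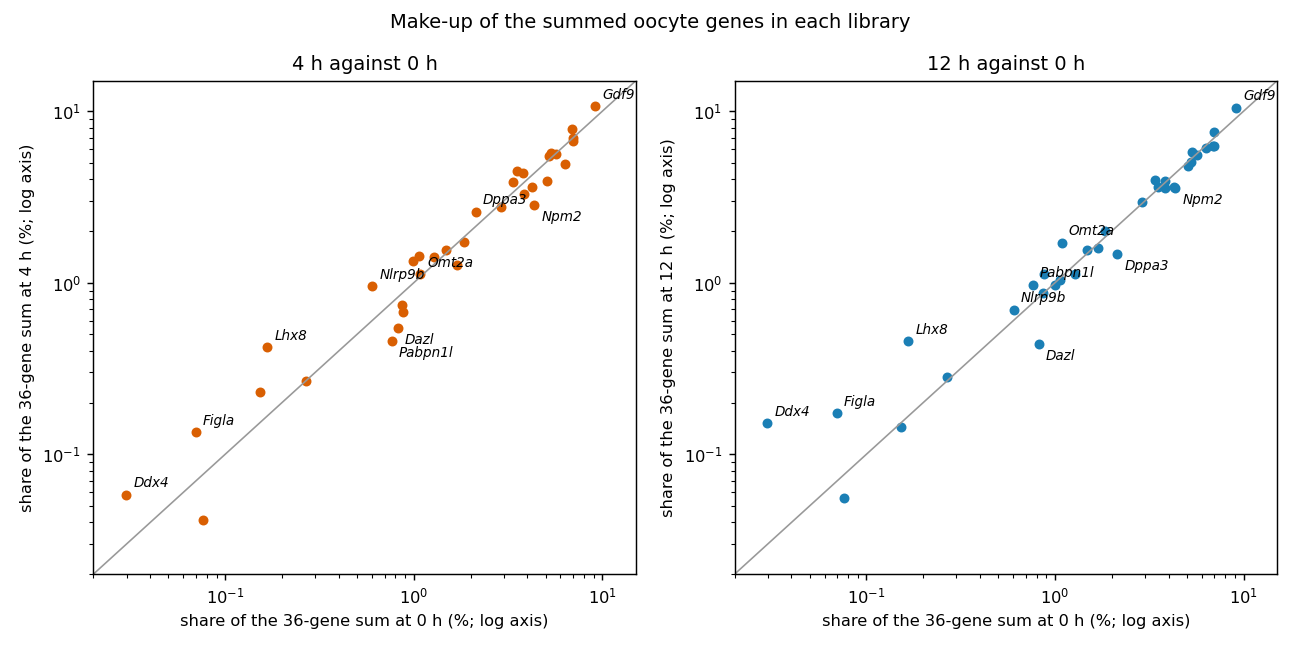
Share of the summed FPKM of the 36 oocyte genes held by each gene (both axes log), at 4 h against 0 h and at 12 h against 0 h; the line marks equal shares and Sohlh1, listed at 0 at 0 h, is left out. Most genes lie near the line, with Lhx8 and Ddx4 above it in both panels and Dazl below it.

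Markers of other cells differed between the libraries as well. All 3 cumulus markers, of cells that leave the follicle with the oocyte, reached 5 FPKM, with none at 0, and summed to 356 FPKM at 0 h, 457 FPKM at 4 h and 587 FPKM at 12 h (104, 106 and 181 FPKM without Amh). Amh was at 252, 351 and 406 FPKM and Slc38a3 at 90.4, 98.2 and 171 FPKM. All 7 granulosa markers reached 5 FPKM, with none at 0, and summed to 8475, 7850 and 4507 FPKM. Inha carried most of that sum, and without it the other 6 came to 1489, 687 and 766 FPKM. By the 2-fold rule 3 of the 7 were lower for 4 h over 0 h, beside 7.03% of all genes. For 12 h over 4 h 3 were higher, beside 4.83%. For 12 h over 0 h 2 of the 7 were lower, beside 2.55%, and 6 had a negative log2 fold. The other marker sums at 0, 4 and 12 h were 13.5, 33.4 and 13.6 FPKM for endothelium (5 of 6 genes at 1 FPKM or more, none at 0), 56.4, 89.5 and 92.7 FPKM for leukocytes (5 of 6, none at 0; 11.1, 33.0 and 19.8 FPKM without Lyz2) and 1.59, 23.4 and 3.55 FPKM for neutrophils (3 of 4, with Ngp at 0 in every library and S100a9 and Camp at 0 h). Surface epithelium came to 42.9, 109 and 63.4 FPKM (5 of 5, none at 0) and erythroid cells to 1739, 1091 and 1110 FPKM (4 of 5, none at 0; 540, 445 and 376 FPKM without Hbb-b1). The part of these cells, or of how many oocytes each puncture released, in the oocyte sums was not tested.

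The members lay on 17 chromosomes, with 6 each on chromosomes 7 and 9 and 4 each on 5 and 6. Neighbours within this set were Nlrp2 and Rfpl4, 182 kb apart, and Ooep and Omt2a, 62.1 kb apart. The 30 members with 1 isoform had transcripts of 759 to 3527 nt, with a median of 1520.5 nt.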

How the data were processed

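Messenger RNA was sequenced from granulosa cells at 0, 4 and 12 h, with 1 library per time. Values are FPKM of RefSeq isoforms as deposited by the authors, with bounds and a deposited standard deviation. CASAVA 1.8, TopHat2 2.1.1, Cufflinks 2.2.1 and mm10 appear in the submitters' processing notes with no role given; strand and read length are not given in the sources used here. Of 34535 isoforms, 34169 matched RefSeq symbols (GRCm38.p6), 193 matched GENCODE M21 and 173 had no match; they were summed to 24225 genes, with half-widths of bounds added in quadrature. The 12 failed estimates were in no member.

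Depth was read from values under 10 fragments of single-isoform genes over 1000 nt, of which 71.0%, 70.0% and 71.8% lay within 0.1 of a whole fragment at 0, 4 and 12 h, where chance gives 20%. Folds used a pseudocount of 1 FPKM, a filter of 1 FPKM in 1 of the 2 libraries and a 2-fold rule. Libraries of all 24225 genes were simulated from the 0 h levels with counting noise only. Genes to be changed were drawn from those with at least 5 FPKM at 0 h. Of them, 100 of 100 changed 4-fold upward and 100 of 100 downward were called in each comparison. This check does not cover lower genes, smaller changes or spread between mice.

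Members and lists were chosen with earlier results of these data known. All members could be named; of the wider oocyte list, genes with at least 5 FPKM in 1 library; of marker lists, the highest genes and those that bear on Kit or Uchl1. The interval rule, the order count, the 1-isoform sum and marker sums without their highest gene were added after seeing the data. Alternatives were other pseudocounts, filters, fold rules, scalings, the main isoform and sums without single members. Python 3.11.15, pandas 2.3.3, numpy 2.4.6 and matplotlib 3.10.9 were used.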

Additional observations from a re-analysis of the deposited data

How the results depend on the processing

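No paired analysis was possible because each time has 1 library, and for the same reason no replicate could be left out. Below, common sum and coding sum mean libraries brought to the mean of their summed or of their protein-coding FPKM. For 4 h over 0 h the number of lower members, 0 on the main settings, became 1 with a pseudocount of 0.1 FPKM, 8 at 1.5-fold, 4 with the common sum, 1 with the coding sum, 1 with the main isoform and 6 with intervals apart; the 1 higher member became 0 at 4-fold and with the common sum. Its median became -0.57 (common sum) and -0.49 (coding sum), and its log2 ratio of sums -0.36 (common sum), -0.28 (coding sum), -0.38 without Kit and Uchl1 and -0.38 without Uchl1. For 12 h over 0 h the 2 higher members became 4 (pseudocount 0.1 FPKM), 0 (5 FPKM), 1 (filter of 5 FPKM), 9 (1.5-fold), 0 (4-fold), 1 (main isoform) and 10 (intervals apart); the median became 0.32 (pseudocount 5 FPKM) and 0.49 (common sum), and the log2 ratio of sums 0.57 (common sum). For 12 h over 4 h the 7 higher members became 11 (pseudocount 0.1 FPKM), 0 (5 FPKM), 23 (1.5-fold), 0 (4-fold), 21 (common sum), 18 (coding sum) and 20 (intervals apart), and the 0 lower became 1 (intervals apart). The median became 0.59 (pseudocount 5 FPKM), 1.11 (common sum) and 1.004 (coding sum), and the log2 ratio of sums 0.93 (common sum), 0.82 (coding sum), 0.83 without Kit and Uchl1 and 0.82 without Uchl1. Over all genes, the number lower for 4 h over 0 h rose from 931 to 1728 (common sum) and 1458 (coding sum). The number higher for 12 h over 4 h rose from 639 to 1670 and 1276. Member counts under these scalings thus rose along with those of all genes. Counts over all genes were not made for the other pseudocounts, filters, fold rules or the main isoform. With its main isoform alone Omt2a turned to -0.38 for 12 h over 0 h and -0.30 for 12 h over 4 h, since its other isoform carried the difference. The count of members in the order 4 h, 0 h, 12 h was 22 to 30. Other causes were not tested. Of 684 values of single members under alternatives, 13 turned sign. A further count took the 2-fold size alone, without the filter of 1 FPKM. By it, 41 newly reached 2-fold in the same direction and 10 called values no longer did. Besides Omt2a, the main isoform alone turned Nlrp5 to 0.16 for 4 h over 0 h, Tcl1 to -0.01 for 12 h over 0 h and Dazl to -0.25 for 12 h over 4 h. For 4 h over 0 h the common sum turned Khdc3 to -0.23, Astl to -0.23, Nlrp9b to -0.02 and Gpr3 to -0.04, and for 12 h over 0 h it turned Dppa3 to 0.0017; the coding sum turned Khdc3 and Astl to -0.15 and Gpr3 to -0.0033 for 4 h over 0 h. Members resting on under 10 fragments (Figla, Sohlh1 and Mael) are limited by depth. Ddx4, with 2 isoforms, was given no fragment count, and it too was low, at 0.174 and 0.262 FPKM at 0 and 4 h.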

Other observations

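A wider list of 63 oocyte genes that holds none of the 38 is given here beside them; it too was chosen with earlier results of these data known. Of these, 49 reached 1 FPKM and 4 were listed at 0 in every library. The secreted protein gene Oosp3 was at 11.6, 5.69 and 16.1 FPKM at 0, 4 and 12 h, the homeobox gene Obox2 at 10.4, 7.70 and 15.5 FPKM and the oocyte translation factor Eif4e1b at 11.2, 9.50 and 18.2 FPKM. Each was lowest at 4 h and highest at 12 h. Of 46 genes that passed the filter for 4 h over 0 h, 38 had a negative log2 fold (median -0.27), and 2, Omt2b and Tcl1b2, were lower by the 2-fold rule (Tcl1b2 is named for this call, after its values were seen), beside 7.03% of all genes. For 12 h over 0 h, 44 of 49 were positive (median 0.44) and 0 were called higher, beside 3.16%. For 12 h over 4 h, 44 of 48 were positive (median 0.70) and 7 were called higher, beside 4.83%. The order 4 h, 0 h, 12 h from low to high held for 34 of 49. Some low genes of this list passed the filter only through their higher library, which fixed their sign.

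The order differed in some genes of the list. Taf4b, a transcription factor subunit of the germ line that granulosa cells also express, stood at 12.4, 12.2 and 10.5 FPKM at 0, 4 and 12 h. Wee2, the oocyte kinase that restrains meiotic resumption, was at 3.86, 4.23 and 8.51 FPKM, with its 12 h level the highest. Lowest at 4 h and highest at 12 h, like most of the list, were Zbed3 and Omt2b. Zbed3, a partner of the maternal complex in the mouse, was the highest of the list at 116, 86.1 and 123 FPKM. Omt2b, whose sequence is close to that of Omt2a, stood at 14.5, 5.36 and 21.5 FPKM, and its level is uncertain as that of a near-identical copy.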
